A study of Mus musculus with 6 samples.

Results

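The genes described here are 47 genes of the G2 phase and of mitosis, taken by symbol from the 34665 rows of a gene count table of B16 tumours. B16 is a mouse melanoma cell line that forms tumours in mice. All 47 symbols had exactly 1 row, and all 47 passed the filter on low counts. The lowest count of any of them in any library was 192, for Ttk. Total RNA of harvested tumours was sequenced in 6 libraries, 3 in each of 2 groups. The ICI group held 3 libraries of tumours from animals treated with an immune checkpoint inhibitor, replicates 1, 2 and 3. The RI group held 3 libraries of tumours from animals given radiation together with such an inhibitor, replicates 1, 2 and 4. Both groups are labelled WT and both received the inhibitor, so the comparison shows the addition of radiation and has no untreated arm. Which inhibitor was used, at what radiation dose, when tumours were taken, from animals of what age and whether the tumour itself was irradiated is not given in the sources used here. No label ties a library to an animal of its own. The p-values below therefore set the group difference against the spread of the 6 libraries, which may not be that of animals.

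Cells that have copied their DNA enter mitosis when cyclin A and cyclin B activate the kinase CDK1. Polo-like and Aurora kinases then build the spindle, kinetochores attach chromosomes to it, and a checkpoint holds back the anaphase-promoting complex until every chromosome is attached. Separase then frees the sister chromatids and the midzone of the spindle directs cytokinesis. Many of the genes are transcribed together late in the cell cycle, through FOXM1, B-MYB and the MuvB complex, which binds a promoter element called the cell cycle genes homology region (CHR), often near CCAAT boxes bound by NF-Y. In a tumour piece their transcripts are commonly read as a measure of how many cells are dividing. In bulk RNA fewer dividing cells and less of these RNAs per cell cannot be told apart.

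With radiation added, 5 of the 47 genes were lower and none was higher at an adjusted p under 0.05 (edgeR's quasi-likelihood test, Benjamini-Hochberg over 16924 genes). The 5 were Prc1, Hmmr, Anln, Smc2 and Top2a, between 1.72-fold and 2.38-fold lower. They are 10.6% of the list, where 4.72% of all tested genes were called lower and 4.46% higher. At an unadjusted p under 0.05, 14 members were lower and 1 higher, against 15.8% and 15.7% of all tested genes. The median log2 fold change was -0.33 over the members and 0.01 over all tested genes. Members below 0 numbered 40 of 47, where 49.0% of all tested genes were. Under upper-quartile scaling, which moved the median of all genes to 0.10, the number was 38, with Mki67 and Cenpa crossing to the other side of 0. The number was 27 with the replicate number as a block, 30 without ICI replicate 3, and 21 without that library after a correction for transcript length and GC content. ICI replicate 3 and RI replicate 4 have no same-numbered library, so with the block the group difference comes from replicates 1 and 2 alone. The block fit is thus not separate from leaving out ICI replicate 3. The 5 members were not called in every fit, and their number was 0 without ICI replicate 1, ICI replicate 3, RI replicate 2 or RI replicate 4. It was also 0 with the replicate block, where the median of the members was -0.04, and after the length and GC correction, where it was -0.22. All 5 kept a negative log2 fold change and an unadjusted p under 0.05 in each of these 6 fits. Since the 5 were picked by their p-values in these same libraries, this is no separate support for them. At an unadjusted p under 0.05 the 4 fits with a library left out had 18, 9, 14 and 9 members lower, against 10.5%, 12.7%, 11.5% and 12.2% of their tested genes.

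**Figure D1:**
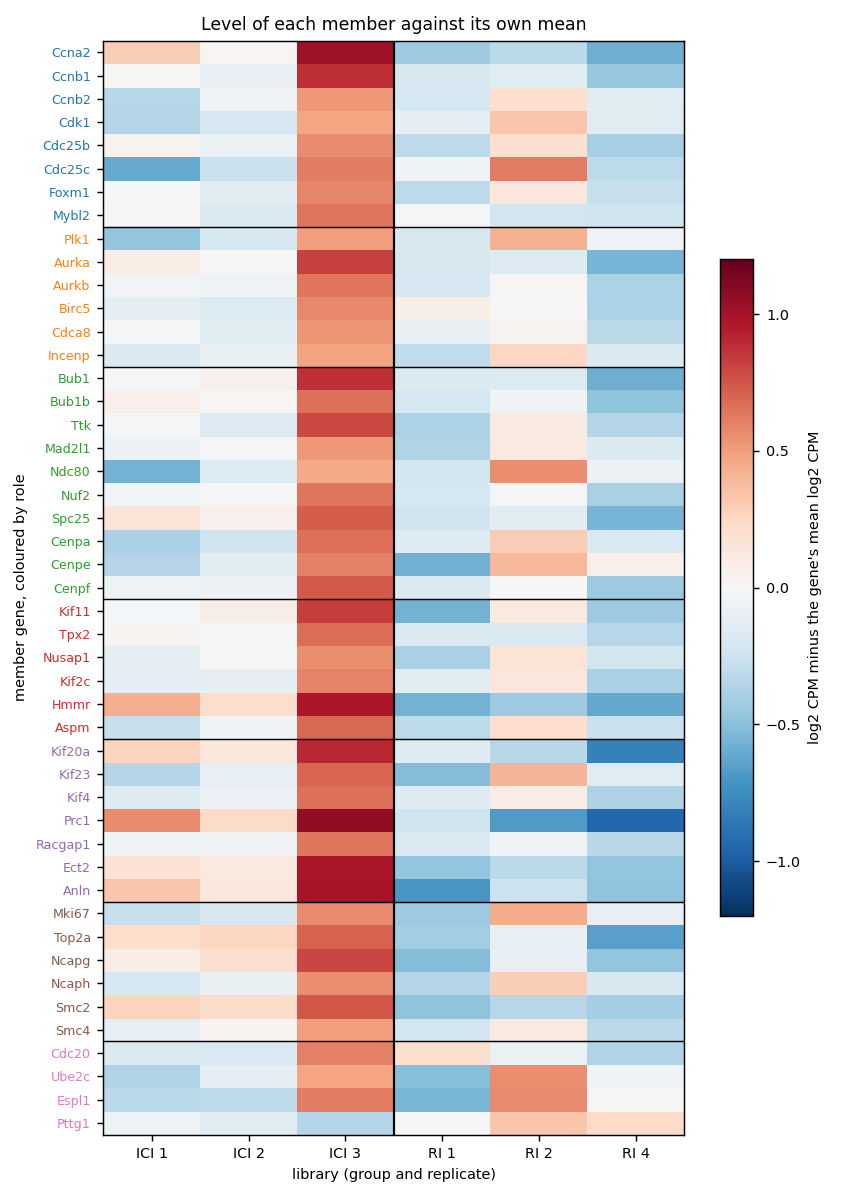
The heat map shows log2 CPM (reads counted on a gene, scaled by TMM to a common library total) of each of the 47 genes minus that gene's mean over the 6 libraries, with libraries in columns and genes in rows, grouped and coloured by role. ICI replicate 3 is the highest library for 43 of the 47 genes.

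ICI replicate 3 stood apart in this list. It held the highest level of 43 of the 47 genes, where it was the highest library for 18.0% of all tested genes. Of the other 4 genes, Cdc25c, Ndc80, Ube2c and Pttg1, the highest level was in RI replicate 2. Averaged over the 47 genes, the log2 level (log2 of CPM + 0.1, minus each gene's mean) was -0.07, -0.04 and 0.66 in the ICI libraries and -0.28, 0.07 and -0.33 in the RI libraries, in replicate order. RI replicate 2 was thus higher than ICI replicates 1 and 2, and was the highest of the RI libraries for 41 genes. The difference of the group means was -0.37 with all libraries and -0.13 without ICI replicate 3. In the fit without it, the median log2 fold change of the members was -0.09 and 30 of 47 were below 0. All 3 RI libraries lay below all 3 ICI libraries for 15 genes and above them for 1, Pttg1, against 19.4% and 17.8% of all tested genes. For 13 more genes RI replicate 2 alone reached into the ICI range. Neither for these 13 nor for the 41 above was the share of all tested genes taken, so they only describe the members.

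Promoter sequences are shown here for the 2 called genes whose promoter holds the CHR letters, and for Cdk1 and Mki67, which hold them too but were not called. The last 2 were chosen after their values were seen. Promoters of 39 members are in the RefSeq table used (GRCm38.p6). In the 250 bases before the start, the CHR letters TTTGAA stood on either strand in 12 of the 39 (30.8%), against 16.3% of the promoters of 27025 genes. CCAAT stood in 29 (74.4%), against 34.5%, and both together in 11 (28.2%), against 5.73%. The E2F-like letters TTCCCGC were in 0 of 39, against 3.84%. Hits of different motifs shared bases in 0 of the 39 promoters. The sequences run 5′ to 3′ on the gene's strand and end at the base before the start, with capitals for the CHR and CCAAT letters of either strand (TTCAAA and ATTGG on the other strand).
Smc2 (chr4:52438971-52439220, plus strand): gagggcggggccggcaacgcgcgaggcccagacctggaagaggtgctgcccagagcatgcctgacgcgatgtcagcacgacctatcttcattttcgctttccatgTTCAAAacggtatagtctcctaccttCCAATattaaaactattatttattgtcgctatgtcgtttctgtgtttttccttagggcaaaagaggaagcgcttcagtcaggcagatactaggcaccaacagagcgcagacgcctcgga
Top2a (chr11:99024190-99024439, minus strand): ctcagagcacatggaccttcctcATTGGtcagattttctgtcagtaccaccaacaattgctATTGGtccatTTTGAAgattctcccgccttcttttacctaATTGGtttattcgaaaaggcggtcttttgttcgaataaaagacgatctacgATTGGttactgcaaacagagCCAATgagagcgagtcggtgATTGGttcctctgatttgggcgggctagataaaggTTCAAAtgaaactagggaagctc
Cdk1 (chr10:69352913-69353162, minus strand): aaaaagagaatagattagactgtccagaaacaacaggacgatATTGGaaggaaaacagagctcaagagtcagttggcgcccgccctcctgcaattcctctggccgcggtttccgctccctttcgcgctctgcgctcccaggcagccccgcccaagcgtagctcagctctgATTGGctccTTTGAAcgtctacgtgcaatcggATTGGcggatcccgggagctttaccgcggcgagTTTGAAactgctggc
Mki67 (chr7:135716380-135716629, minus strand): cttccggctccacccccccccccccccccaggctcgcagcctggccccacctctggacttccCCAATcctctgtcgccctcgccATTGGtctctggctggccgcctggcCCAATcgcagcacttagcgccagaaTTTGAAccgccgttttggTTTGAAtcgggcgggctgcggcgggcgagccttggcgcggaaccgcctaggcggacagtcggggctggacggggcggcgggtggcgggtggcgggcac
In Cdk1 the CHR letters begin 71 and 15 bases before the start, and in Mki67 116 and 98. Top2a holds them at 179 and 23 bases and CCAAT at 6 places, and Smc2 holds each motif once, at 145 and 119 bases. The median log2 fold change was -0.24 over the 12 members with the CHR letters and -0.35 over the 27 without, with 2 and 3 called genes. A match is a description of the letters and shows no binding. Hmmr and Prc1 hold CCAAT but not TTTGAA in this window, and Anln holds neither.

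Genes of the spindle midzone and of cytokinesis had the lowest median log2 fold change of the 7 role groups, -0.88. With edgeR 2 of these 7 genes fell, 0 rose and 5 did not pass, where 4.72% of all tested genes were called lower. DESeq2 called 2 more lower, Kif20a and Ect2, where it called 10.1% of all tested genes lower. PRC1 bundles the antiparallel microtubules of the midzone. Its gene Prc1 (chromosome 7, 80294450 to 80316259 on GRCm38, GENCODE M21) stood at 46.8, 37.1 and 66.1 CPM in ICI replicates 1, 2 and 3 and at 26.8, 19.8 and 16.5 CPM in RI replicates 1, 2 and 4. Every RI library was below every ICI library, and ICI replicate 3 was the highest. Prc1 fell 2.38-fold (log2 fold change -1.25, SE 0.25, adjusted p = 0.0346). Exons of Rccd1, on the opposite strand, cover 11.1% of those of Prc1. Rccd1 was higher in RI (log2 fold change 0.98, adjusted p = 0.0390), and since the strand setting of the counting is not known, reads of the 2 genes cannot be told apart there. Anillin, the scaffold of the contractile ring, is encoded by Anln (chromosome 9, 22332012 to 22389188). Its levels were 67.6, 58.4 and 106 CPM in ICI against 32.9, 44.8 and 38.4 CPM in RI. The groups did not overlap. Anln fell 2.00-fold (log2 fold change -1.0, SE 0.23, adjusted p = 0.0420). Anln was not called with limma-voom (adjusted p = 0.0526) or without RI replicate 1 (0.0629).

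Partners of these proteins had lower means in RI without passing the test. ECT2 activates RhoA at the division site, and Ect2 averaged 19.3 ± 1.13 CPM in RI against 36 ± 12.9 in ICI (SD, n = 3, adjusted p = 0.0521, edgeR). The kinesin gene Kif20a averaged 14.7 ± 3.26 against 27.0 ± 8.24 CPM (adjusted p = 0.0640). Exons of Cdc23, on the opposite strand, cover 29.3% of those of Kif20a, so part of its count cannot be told apart from that gene, which was also lower (adjusted p = 0.0427). Both Ect2 and Kif20a had no overlap between the groups. Racgap1 and Kif23 encode the 2 subunits of centralspindlin. Racgap1 stood at 115, 115 and 186 CPM in ICI and 105, 115 and 93.9 CPM in RI, and Kif23 had a log2 fold change of -0.19. For both genes RI replicate 2 was the highest RI library, and only ICI replicate 3 lay clear above it. Kif4, a chromokinesin, had a log2 fold change of -0.33. Opposite-strand exons of Pdzd11 cover 15.1% of those of Kif4, so reads there cannot be told apart. Pdzd11 had a log2 fold change of 0.16.

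**Figure D2:**
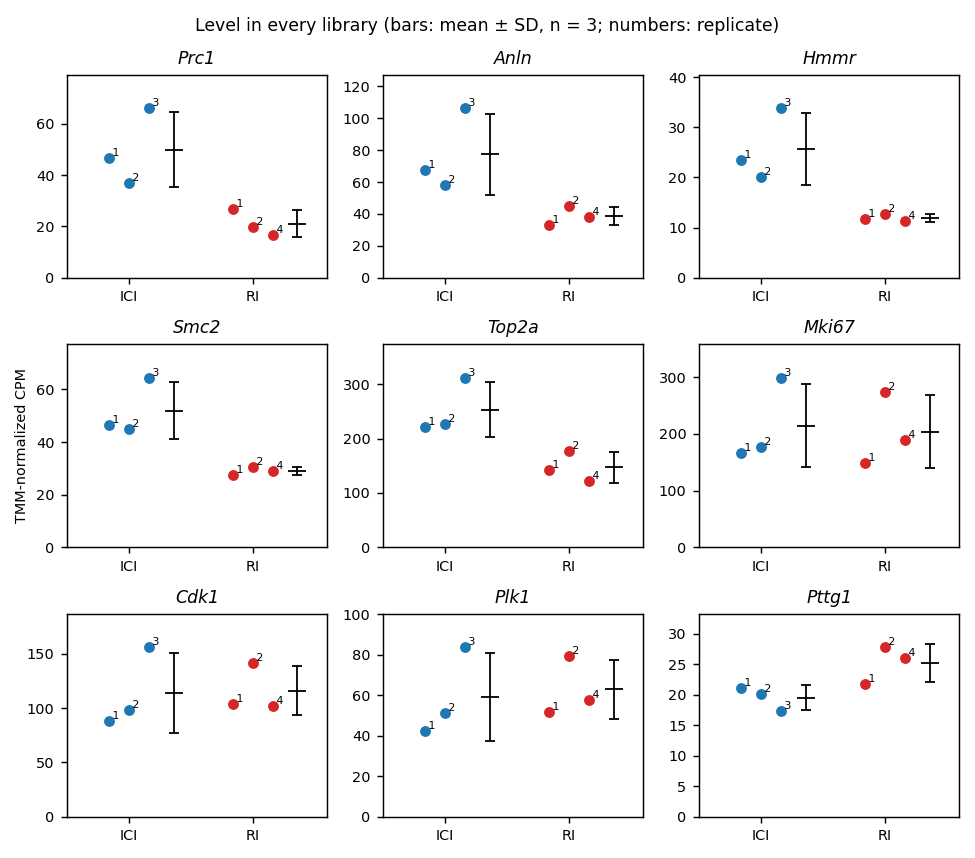
Each panel shows the TMM-normalized CPM of 1 gene in every library (points, numbered by replicate) with the group mean and SD (black, n = 3), on axes that start at 0. The ICI and RI points are separate for Prc1, Anln, Hmmr, Smc2 and Top2a, with RI lower, and for Pttg1, with RI higher. They overlap for Mki67, Cdk1 and Plk1.

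Among spindle motors and microtubule factors 1 of 6 fell, with edgeR (4.72% of all tested genes) and with DESeq2 (10.1%). All 6 had a log2 fold change below 0 (49.0% of all tested genes), with a median of -0.41. Hmmr encodes a hyaluronan receptor that also binds spindle microtubules and helps to focus the poles (chromosome 11, 40701395 to 40733422). It stood at 23.4, 20.0 and 33.8 CPM in ICI and at 11.7, 12.8 and 11.2 CPM in RI. The 3 RI libraries were close together (SD 0.803 CPM) and all below the lowest ICI library. Hmmr fell 2.16-fold (log2 fold change -1.11, SE 0.21, adjusted p = 0.0326). TPX2 activates Aurora A on the spindle. Tpx2 stood at 74.6, 72.9 and 116 CPM in ICI and 64.5, 64.2 and 57.7 CPM in RI, with no overlap between the groups and adjusted p = 0.121. Kif11, the motor that pushes the poles apart, stood at 46.5, 49.6 and 84.0 CPM in ICI and 31.9, 51.4 and 35.0 CPM in RI. RI replicate 2 was above 2 of the ICI libraries there, and Kif11 did not pass (adjusted p = 0.172). Nusap1, Aspm and Kif2c had log2 fold changes of -0.31, -0.29 and -0.27.

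Genes of chromosome structure gave the other 2 calls, 2 of 6, where 4.72% of all tested genes were called lower. DESeq2 called 3, with Ncapg added, where it called 10.1% of all tested genes lower. Top2a encodes topoisomerase II alpha, which untangles sister chromatids (chromosome 11, 98992943 to 99024189). It stood at 221, 226 and 312 CPM in ICI and at 143, 178 and 121 CPM in RI. No RI library reached an ICI library. Top2a fell 1.72-fold (log2 fold change -0.78, SE 0.20, adjusted p = 0.0478). Top2a was not called with upper-quartile scaling (adjusted p = 0.0630), with robust estimation turned off (0.0522), with limma-voom (0.0512), without ICI replicate 2 (0.0724) or without RI replicate 1 (0.0577). SMC2 is an ATPase subunit of both condensin complexes. Smc2 (chromosome 4, 52439243 to 52488260) stood at 46.5, 44.8 and 64.4 CPM in ICI and at 27.6, 30.5 and 29.0 CPM in RI. The 3 RI libraries were close together and all below ICI. Smc2 fell 1.79-fold (log2 fold change -0.84, SE 0.17, adjusted p = 0.0339).

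Of the other 3 condensin subunits among the members, Ncapg averaged 18.3 ± 3.06 CPM in RI and 30.6 ± 8.66 in ICI with no overlap (adjusted p = 0.0702). Exons of Lcorl, on the opposite strand, cover 13.4% of those of Ncapg, so reads there cannot be told apart. Lcorl had a log2 fold change of -0.47. Smc4 and Ncaph stood at log2 fold changes of -0.30 and -0.18, with RI replicate 2 inside the ICI range for both. On a scale of CPM per kilobase of the longest transcript, ICI levels were 16.6 for Smc4 and 16.4 for Ncaph, and 9.61 for Smc2 and 7.70 for Ncapg. Mki67 encodes Ki-67, a coat protein of mitotic chromosomes and the common proliferation marker. It stood at 167, 178 and 299 CPM in ICI and at 149, 275 and 189 CPM in RI. RI replicate 2 was close to ICI replicate 3, and RI replicate 1 was the lowest of the 6, so that the groups overlapped. The log2 fold change of Mki67 was -0.07 (SE 0.29, adjusted p = 0.888), and 0.01 under upper-quartile scaling.

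**Figure D3:**
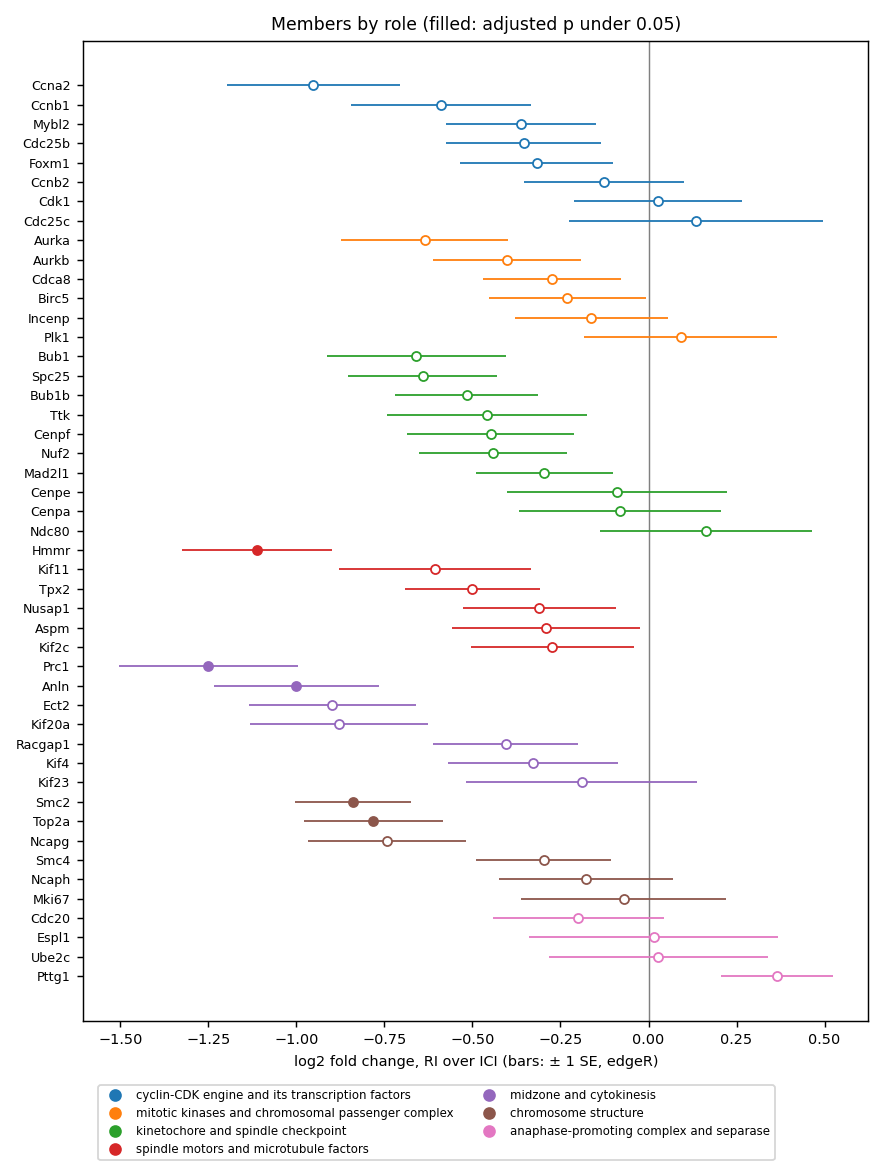
The plot gives the log2 fold change of RI over ICI for each of the 47 genes with 1 SE to either side (edgeR), grouped by role. Filled points mark the 5 genes with an adjusted p under 0.05, all left of 0.

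Of 8 genes of the cyclin and CDK engine and its transcription factors 0 passed in edgeR with all 6 libraries after the low-count filter. Their log2 fold changes ran from -0.95 to 0.14. DESeq2 called 1 lower, Ccna2, where it called 10.1% of all tested genes lower. Ccna2 was also the 1 gene with an unadjusted edgeR p under 0.05. It was called by edgeR with no filter (adjusted p = 0.00414, 4.35% of all genes) and without ICI replicate 2 (0.0493, 1.67%). Ccna2 encodes cyclin A2, the partner of CDK2 and CDK1 in S and G2. It stood at 74.7, 61.7 and 123 CPM in ICI and at 45.1, 48.6 and 40.5 CPM in RI. The groups did not overlap and the gene lay just outside the threshold (log2 fold change -0.95, adjusted p = 0.0506). Exons of Exosc9, on the opposite strand, cover 12.5% of those of Ccna2, so reads there cannot be told apart. Exosc9 had a log2 fold change of -0.08. Ccnb1, for cyclin B1, stood at 58.0, 53.8 and 105 CPM in ICI and 50.3, 52.0 and 42.0 CPM in RI. The highest RI library was close under the lowest ICI library, and Ccnb1 did not pass (log2 fold change -0.59, adjusted p = 0.161). Pseudogene copies match up to 51.9% of the length of the Ccnb1 transcript at 95% identity or more, and the copy with the most counts, Ccnb1-ps, held 157 counts in all libraries against 13810. Ccnb2, for cyclin B2, had a log2 fold change of -0.13.

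Cdk1, for the kinase that these cyclins activate, stood at 87.9, 97.9 and 156 CPM in ICI and 104, 142 and 102 CPM in RI, so that all RI libraries lay inside the ICI range (log2 fold change 0.03, SE 0.24, adjusted p = 0.952). Cdc25c, for a phosphatase that activates CDK1, stood at 9.49, 11.9 and 22.0 CPM in ICI and at 13.9, 22.1 and 11.6 CPM in RI, with 1 high library in each group. Foxm1 and Mybl2 encode the transcription factors FOXM1 and B-MYB. Foxm1 stood at 95.7, 87.6 and 144 CPM in ICI and 77.4, 105 and 79.5 CPM in RI. Mybl2 stood at 43.2, 38.1 and 67.0 CPM in ICI and 42.6, 36.7 and 36.3 CPM in RI. Only ICI replicate 3 lay clear of the others for Mybl2, and neither gene passed (adjusted p = 0.338 and 0.276).

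Mitotic kinases and the chromosomal passenger complex gave 0 calls among 6 genes with edgeR, DESeq2 and limma-voom after the filter on low counts, and 1 gene, Aurka, had an unadjusted edgeR p under 0.05. Its product is the Aurora kinase of the spindle poles. Aurka stood at 39.0, 36.5 and 64.6 CPM in ICI and at 32.2, 33.0 and 25 CPM in RI. The groups did not overlap (log2 fold change -0.64, adjusted p = 0.114). Without the filter, edgeR called Aurka lower (adjusted p = 0.0208), with 4.35% of all genes called lower at an all-gene median of 0.225. Plk1, for polo-like kinase 1, stood at 42.5, 51.2 and 83.7 CPM in ICI and at 51.7, 79.6 and 57.5 CPM in RI. ICI replicate 3 and RI replicate 2 were high and the other 4 libraries between 42.5 and 57.5 CPM (log2 fold change 0.09, adjusted p = 0.845). The passenger complex is made of Aurora B, INCENP, survivin and borealin. Aurkb stood at 55.5, 54.9 and 88.7 CPM in ICI and at 49.5, 57.6 and 43.6 CPM in RI. Incenp stood at 64.4, 68.3 and 102 CPM in ICI and at 58.8, 86.4 and 64.2 CPM in RI. Birc5, for survivin, stood at 72.4, 70.1 and 117 CPM in ICI and 82.5, 78.5 and 60.2 CPM in RI. In all 3 genes the groups overlapped, and their log2 fold changes were -0.40, -0.16 and -0.23. That of Cdca8, for borealin, was -0.27.

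Kinetochore and spindle checkpoint genes had a median log2 fold change of -0.44. After the filter on low counts 0 of 10 were called by edgeR or limma-voom. DESeq2 called 1, Spc25, where it called 10.1% of all tested genes lower. An unadjusted edgeR p under 0.05 was reached by 3 genes, all lower, Bub1, Bub1b and Spc25, at log2 fold changes of -0.66, -0.52 and -0.64 and adjusted p of 0.124, 0.128 and 0.0864. Without the filter, where 4.35% of all genes were called lower at an all-gene median of 0.225, edgeR called these 3 lower (adjusted p = 0.0410, 0.0339 and 0.0163). Their proteins act in the checkpoint (BUB1 and BUBR1) and in the microtubule-binding NDC80 complex (SPC25), and for these genes the groups did not overlap. The NDC80 complex showed a range of values. Ndc80 stood at 16.1, 21.4 and 32.8 CPM in ICI and 20.6, 35.3 and 22.8 CPM in RI, with RI replicate 2 the highest of the 6 and a log2 fold change of 0.16. Nuf2 was at -0.44 (adjusted p = 0.190). Mad2l1, for the checkpoint protein MAD2, stood at 68.7, 71.2 and 104 CPM in ICI and at 56.3, 77.9 and 64.1 CPM in RI. Cenpa, the histone H3 variant of centromeres, stood at 48.1, 53.6 and 99.5 CPM in ICI and at 56.5, 78.0 and 55.6 CPM in RI. Both genes were high in ICI replicate 3 and next in RI replicate 2. Ttk, Cenpe and Cenpf had log2 fold changes of -0.46, -0.09 and -0.45.

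Genes of the anaphase-promoting complex and of separase had a median log2 fold change of 0.02, with 0 of 4 called by any of the 3 tools and 1, Pttg1, higher at an unadjusted edgeR p under 0.05. Cdc20, the activator of the complex, stood at 46.7, 46.6 and 80.3 CPM in ICI and at 60.2, 50.1 and 41.0 CPM in RI. The groups overlapped (log2 fold change -0.20, adjusted p = 0.601). Ube2c, for its ubiquitin-conjugating enzyme, stood at 65.2, 77.4 and 117 CPM in ICI and 58.8, 124 and 81.7 CPM in RI. Espl1, for separase, stood at 42.1, 42.3 and 80.2 CPM in ICI and 36, 77.7 and 52.7 CPM in RI. For both, 1 library of each group was high, and the log2 fold changes were 0.03 and 0.01. Pttg1 encodes securin, which holds separase inactive until anaphase. It stood at 21.1, 20.2 and 17.2 CPM in ICI and at 21.7, 27.7 and 25.9 CPM in RI. It was the 1 member with every RI library above every ICI library and the 1 member lowest in ICI replicate 3. Pttg1 did not pass (log2 fold change 0.37, SE 0.16, adjusted p = 0.156).

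Within complexes and families the members thus had unlike values, for example Ndc80 at 0.16 and Spc25 at -0.64, or Ccnb2 at -0.13 and Ccna2 at -0.95. Differences between members were not tested. Per kilobase of transcript the most abundant members in ICI were Top2a (48.5 CPM per kilobase), Ube2c (39.5), Ccnb2 (36.8), Aurkb (34.0) and Cdc20 (32.3), and the least abundant Aspm (4.23), Ttk (4.8), Cenpe (4.84) and Cenpf (5.26). In RI the order at the top was Ube2c (40.2), Ccnb2 (33.7), Plk1 (28.6), Top2a (28.2) and Cdc20 (28.1), and Hmmr (3.06) was the lowest. Of the 46 pairs of neighbours in each order, 0 in ICI and 1 in RI (Ect2 and Smc2) lay further apart than the SD of both genes. The scale takes the longest annotated transcript as the gene's length, which may be longer than the one expressed.

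Other genes of mitosis came from lists of further kinetochore, spindle, chromosome and G2/M genes. Of 128 tested, 10 were lower and 0 higher, with a median log2 fold change of -0.24. Of all tested genes 4.72% were called lower and 4.46% higher. Without ICI replicate 1, ICI replicate 3 or RI replicate 2, 0.00% of all genes were called lower, so none of the 10 was called there. After the length and GC correction 1.26% of all tested genes were called lower. Of the 10 calls 7 were among the 19 condensin, cohesion and chromosome genes, with a median of -0.49. All 19 were below 0, where 49.0% of all tested genes were. The lists of kinetochore, spindle and G2/M genes had medians of -0.20, -0.26 and -0.15, with 1 call each. Of the 128 genes 29 were above 0. Pds5b and Pds5a, which regulate cohesin on chromatin, averaged 32.9 ± 1.51 and 90.2 ± 5.03 CPM in RI against 60.2 ± 7.72 and 143 ± 18.7 in ICI (SD, n = 3, adjusted p = 0.0260 and 0.0346, edgeR). The cohesin subunit gene Smc3 fell 1.74-fold, and Stag1 and Stag2, for other subunits, and Wapl, for the factor that releases cohesin, fell as well (adjusted p from 0.0340 to 0.0402). Lmnb1, for lamin B1 of the nuclear envelope, fell 1.96-fold. The other 3 were Mis12 of the kinetochore, 1.72-fold lower, Numa1 of the spindle poles, 1.54-fold lower, and Cdc23 of the anaphase-promoting complex, 1.5-fold lower. Exons of Cdc23 and Kif20a overlap on opposite strands, so part of the Cdc23 count cannot be told apart from that of Kif20a.

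Genes that act before mitosis are given beside these. Of 50 genes of the G1/S transition and of replication 9 fell and 0 rose, against 4.72% and 4.46% of all tested genes. The median log2 fold change was -0.38 against -0.33 for the 47 members. None of the 9 was called without ICI replicate 1, ICI replicate 3 or RI replicate 2, where 0.00% of all genes were called lower. Mcm4, of the replicative helicase, was at 34.2 ± 2.83 against 70.4 ± 16.5 CPM, and Ccne2, for cyclin E2, at 5.61 ± 0.624 against 13.1 ± 4.98. The other 7 were Cdc6, Dtl, Mcm2, Ccnd1, Pola1, Chaf1a and Ung. The mean log2 level of the replication list was 0.11, -0.04 and 0.54 in ICI and -0.11, -0.18 and -0.31 in RI, so that, unlike the mitotic list, RI replicate 2 lay below the first 2 ICI libraries. Without ICI replicate 3 the difference of the group means was -0.24 for the replication list and -0.13 for the mitotic one. Whether the 2 lists differ was not tested. Among 18 tested inhibitors of CDKs and quiescence genes, 1 rose and 1 fell, against 4.46% and 4.72% of all tested genes. Cdkn1c, for the inhibitor p57, was at 1.91 ± 0.554 CPM in RI against 0.240 ± 0.0588 in ICI, and Cdkn1b, for p27, at 66.7 ± 7.81 against 104 ± 18.4. The ICI level of Cdkn1c rests on few reads, since 3 counts make 0.0627 to 0.0863 CPM in those libraries. Cdkn1a, the p53 target p21, stood at 190, 229 and 162 CPM in ICI and at 343, 205 and 257 CPM in RI, was lowest in ICI replicate 3 and did not pass (edgeR, adjusted p = 0.174).

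**Figure D4:**
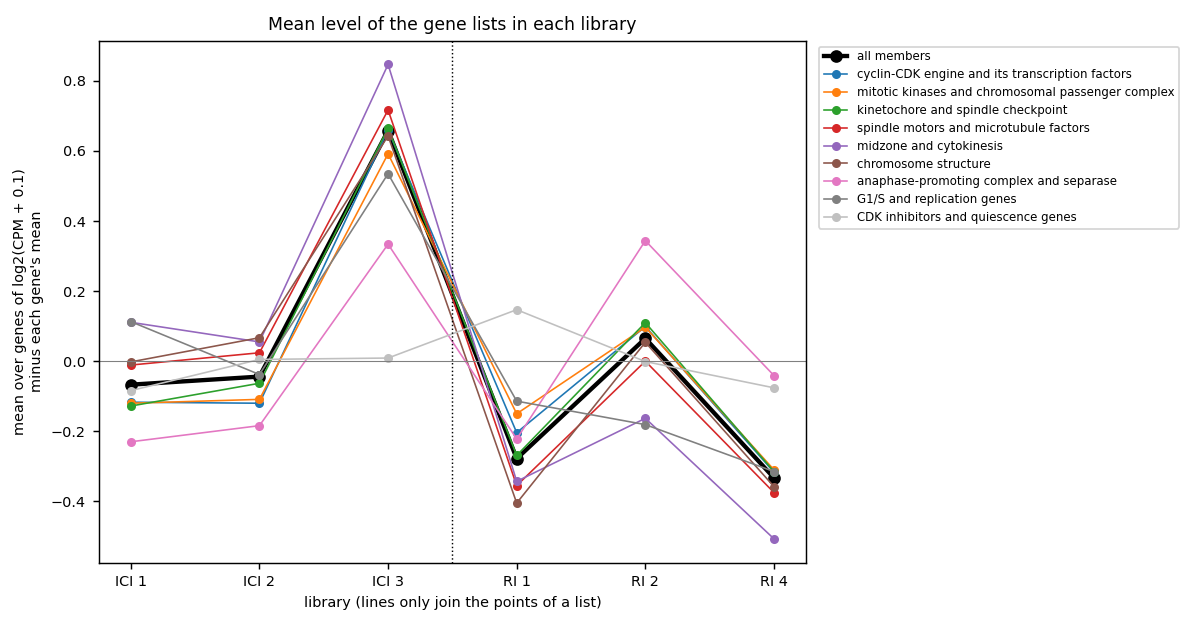
Points give the mean over the genes of a list of log2(CPM + 0.1) minus each gene's own mean, for each library, with all 47 members in black and the role groups, the replication genes and the CDK inhibitors in colour or grey. All 7 role groups are higher in ICI replicate 3 than in ICI replicates 1 and 2, and the black points of ICI replicates 1 and 2 lie between those of the RI libraries.

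Other measures also differed between the libraries. Library totals ran from 22543721 to 45624013 counts. Mitochondrially encoded genes took 4.38% to 5.01% of counts in ICI and 11.5% to 14.7% in RI, and with those genes left out before scaling the same 5 members were called lower. ICI replicate 3 held 3698 CPM in 5 red cell genes, against 94.0 to 559 in the other libraries, and 21.4 CPM in 5 adipocyte genes, against at most 0.115 in the other ICI libraries and 30.4 to 46.7 in RI. Its sum over 9 T and NK cell genes was 3.37 CPM, where the first ICI library had 51.5, the second 18.4 and the RI libraries 1.12 to 13.8. Skeletal muscle genes ranged from 2.45 CPM in that library to 2082 in RI replicate 1. Melanocyte genes, the markers of the labelled tumour, were abundant in every library (8 genes, 13948 to 15842 CPM in ICI and 10608 to 15133 in RI). Of these 8 genes 5 had a log2 fold change below 0 and 3 above. Only Mlana was called, higher in RI (0.75, adjusted p = 0.0376, edgeR), where 4.46% of all tested genes were called higher. No marker of these lists was at 0 in all libraries. Their part in the level of the mitotic genes was not tested.

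Transcript length and base composition also went with the fold changes. Members were longer than tested genes in the median (3668 against 2964 bases of the longest transcript) and lower in GC content (46.3% against 49.6%). Across the 47 members, which share their libraries, the Spearman correlation of log2 fold change was 0.40 with GC content and -0.17 with length, and across all tested genes 0.21 and -0.26. After a per-library correction for both properties none of the 47 was called, where 1.26% of all tested genes were called lower, and 11 were lower at an unadjusted p under 0.05, against 12.8%. The median log2 fold change was then -0.22, and Prc1, Hmmr, Smc2, Anln and Top2a were at -1.04, -0.88, -0.56, -0.78 and -0.50 with adjusted p of 0.0589, 0.0519, 0.0699, 0.0717 and 0.132. Without RI replicate 1, which had counts on 29748 rows against at most 24891 elsewhere, the corrected fit called Prc1 and Hmmr.

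**Figure D5:**
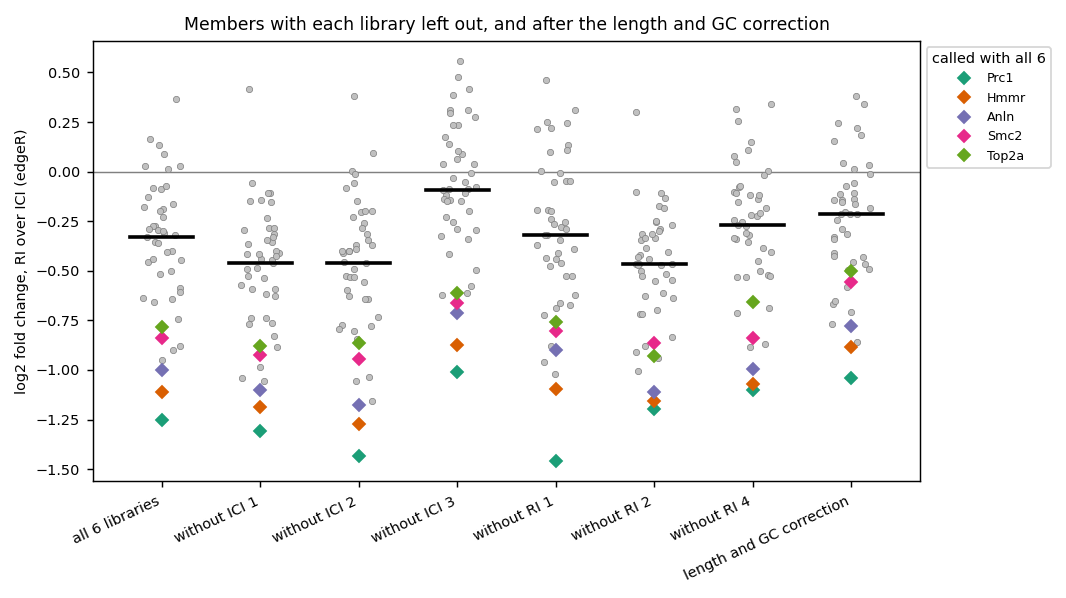
For each fit named on the horizontal axis, points give the log2 fold change of RI over ICI for the 47 members, diamonds the 5 called with all 6 libraries, and bars the median. The median is -0.33 with all libraries, -0.09 without ICI replicate 3 and -0.47 without RI replicate 2, and the 5 diamonds stay below 0 in every fit shown.

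With each library left out in turn, the median of the members ran from -0.47 without RI replicate 2 to -0.09 without ICI replicate 3. Over the same 6 fits Prc1 ran from -1.46 to -1.01, Hmmr from -1.27 to -0.88, Anln from -1.18 to -0.71, Smc2 from -0.94 to -0.66 and Top2a from -0.93 to -0.61, with the value nearest 0 for all 5 in the fit without ICI replicate 3. Since these 5 were called on the same data and their groups are separate, their sign could not turn in such fits. Mki67 ran from -0.34 without RI replicate 2 to 0.24 without ICI replicate 3, Plk1 from -0.11 to 0.42 and Espl1 from -0.30 to 0.38. By setting, the members called lower were 5 with median-of-ratios scaling (4.56% of all tested genes), 4 with upper-quartile scaling (2.94%), 14 with no filter on low counts (4.35%) and 5 with a filter of 1 CPM (5.20%). The 9 added without the filter were Ccna2, Aurka, Bub1, Bub1b, Spc25, Tpx2, Kif20a, Ect2 and Ncapg, in a fit where the median log2 fold change of all genes was 0.23. They were 4 without robust estimation (4.31%), 5 without mitochondrial genes (4.66%) and 3 with limma-voom (4.08%). With the replicate number as a block they were 0 (1.45%), with 7 at an unadjusted p under 0.05 (12.4%). They were 5 without ICI replicate 2 (1.67%, 14.7% unadjusted) and 4 without RI replicate 1 (8.80%, 18.5% unadjusted). Without ICI replicate 2 these were Hmmr, Prc1, Anln, Smc2 and Ccna2. Without RI replicate 1 they were Hmmr, Prc1, Smc2 and Kif20a. The 4 fits with 0 members called 0.00% of all genes, or 0.0905% without RI replicate 4. With the length and GC correction, leaving out RI replicate 1 gave 2 (6.67%, 16.4% unadjusted) and leaving out ICI replicate 3 gave 0 (9.97% unadjusted). No member was called higher in any of 19 alternatives, where 0.00% to 10.6% of all tested genes were. With an adjusted p under 0.1, 10 members were lower, against 10.8% of all tested genes. They were the 5 with Ccna2, Ect2, Kif20a, Ncapg and Spc25, and DESeq2 called the same 10 at 0.05, where it called 10.1% of all tested genes lower.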

How the data were processed

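Tumour RNA was sequenced in 6 libraries. The authors deposited raw counts for 34665 Ensembl genes, 83 of them without a symbol. HISAT2 and the builds GRCm38 and mm10 are named in the submitters' processing notes. Of the counting tool, annotation, strand and software versions nothing is said (not given in the sources used here). No 2 libraries agreed within sampling noise (chi-square per degree of freedom at least 39.8).

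Counts were fitted with edgeR 4.0.16 (R 4.3.3) after filterByExpr, TMM scaling and robust dispersions, RI against ICI, and p-values were adjusted by Benjamini-Hochberg over 16924 genes. Levels are TMM-normalized CPM. SEs come from the coefficient and the F statistic. The fit was tested on simulated data. DESeq2 1.42.0 and limma 3.58.1 were alternatives, beside other scalings, filters, a replicate block, each library left out, and a spline correction (5 degrees of freedom) for length and GC content, which 99.6% of tested genes had. Positions, overlaps and copies (blastn 2.17.0, at least 200 bases at 95% identity) came from GENCODE M21 on GRCm38, promoters from RefSeq. Named were called members, the 2 most abundant of each role, 12 standard genes and the 3 lowest and 3 highest log2 fold changes. The members and lists were chosen with earlier results of these data known. Further names were picked once values were known.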

Additional observations from a re-analysis of the deposited data

How the results depend on the processing

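The count of 5 members lower (4.72% of all tested genes) was 14 with no filter on low counts (4.35%). It was 10 with DESeq2 (10.1%) and 10 at an adjusted p under 0.1 (10.8%). With limma-voom 3 were lower (4.08%), and after the length and GC correction 0 (1.26%). Single libraries left out gave from 0 to 5, where 0.00% to 8.80% of all tested genes were called lower. The count was 5, 5 and 5 with median-of-ratios scaling, at least 1 CPM in 3 libraries and mitochondrial genes left out (4.56%, 5.20% and 4.66%). It was 4 and 4 with upper-quartile scaling and without robust estimation (2.94% and 4.31%). Fits added after seeing the data, with the correction, gave 2 without RI replicate 1 (6.67%) and 0 without ICI replicate 3 (0.00%). The median of the members was 0.014 in the fit without ICI replicate 3. The median ran from -0.468 to -0.091 with single libraries left out. The replicate number as a block gave 0 members lower (1.45% of all tested genes) and a median of -0.04. At an unadjusted p under 0.05 it gave 7 (12.4%). Numbers 1 and 2 alone occur in both groups, so the block fit takes the group difference from those libraries and in effect drops ICI replicate 3 and RI replicate 4. Deviations of same-numbered libraries correlated at 0.353 and 0.091, and those of libraries with unlike numbers at -0.32 to 0.27. Nothing in the labels says that a number pairs tumours, and whether it does was not tested. Members not called changed sign in some fits. Their log2 fold changes were then as follows. Upper-quartile scaling gave Cenpa 0.004 and Mki67 0.012. No filter gave Cdk1 -0.026, Ube2c -0.019 and Espl1 -0.031. The replicate block gave Ccnb2 0.189, Birc5 0.175, Cdca8 0.053, Incenp 0.105, Cenpa 0.388, Cenpe 0.147, Kif2c 0.118, Aspm 0.104, Kif23 0.172, Kif4 0.081, Mki67 0.234, Ncaph 0.126 and Cdc20 0.235. The length and GC correction gave Plk1 -0.109, Mad2l1 0.014, Cenpa 0.035, Cenpe 0.219, Mki67 0.155 and Ube2c -0.152. That correction without RI replicate 1 gave Mad2l1 0.104, Cenpa 0.113, Cenpe 0.426, Aspm 0.062, Kif23 0.117 and Mki67 0.327. Without ICI replicate 3 it gave Ccnb2 0.062, Birc5 0.124, Cdca8 0.032, Incenp 0.037, Ttk 0.000, Mad2l1 0.184, Nuf2 0.006, Cenpa 0.411, Cenpe 0.481, Cenpf 0.097, Nusap1 0.088, Kif2c 0.018, Aspm 0.260, Kif23 0.278, Kif4 0.123, Racgap1 0.014, Mki67 0.420, Ncaph 0.111 and Smc4 0.118. With single libraries left out, log2 fold changes that crossed 0 ran, for Ccnb2 from -0.314 to 0.140, Cdk1 from -0.141 to 0.310, Cdc25c from -0.173 to 0.559, Plk1 from -0.110 to 0.417, Birc5 from -0.372 to 0.039, Incenp from -0.335 to 0.064, Ndc80 from -0.102 to 0.477, Cenpa from -0.283 to 0.309, Cenpe from -0.317 to 0.237, Aspm from -0.489 to 0.039, Kif23 from -0.468 to 0.177, Mki67 from -0.335 to 0.235, Ncaph from -0.386 to 0.087, Cdc20 from -0.346 to 0.102, Ube2c from -0.291 to 0.296 and Espl1 from -0.299 to 0.384. The cause of these changes was not tested. No member was called higher in any fit, where 0.00% to 10.6% of all tested genes were.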
